A study of Mus musculus with 7 samples.

Results

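The genes described here are 10 members of the fibroblast growth factor (FGF) system in mouse motor cortex: the receptors Fgfr1, Fgfr2 and Fgfr3, the ligands Fgf1, Fgf2 and Fgf9, the Sprouty feedback inhibitors Spry1, Spry2 and Spry4, and the transcription factor Etv5. They were taken by gene symbol from a table of 54532 genes, and all 10 were found and passed the filter on low counts. The set was chosen with the difference between the genotypes of these same libraries in view, so the differences between genotypes are given for these genes as descriptions, without a test. Bulk RNA was sequenced from motor cortex in 7 libraries, 3 labelled WT and 4 labelled cKO (a conditional knockout, which removes a gene only in cells that carry a recombinase). Mice of both genotypes received a GA100 virus in the left and right lateral ventricles on postnatal day 0, and tissue was taken 3 months later, after behavioural tests; GA100 names a repeat of glycine and alanine like the one made from expanded C9orf72 alleles in amyotrophic lateral sclerosis. All libraries, WT included, therefore come from virus-injected mice, and no uninjected group is analysed here. The labels name neither the deleted gene nor the cells in which it was deleted, and they do not say that each library is a separate mouse, so errors measure the spread between libraries.

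FGF ligands bind receptor tyrosine kinases together with heparan sulfate chains, and the active receptors signal through adaptor proteins and the RAS-ERK cascade. ERK signalling switches on its own brakes, among them the Sprouty proteins and dual-specificity phosphatases, and the ETS transcription factors of the Etv1, Etv4 and Etv5 group, so that transcripts of these genes are widely read as markers of pathway activity. In adult brain, Fgfr3 is known mainly from astrocytes, Fgfr2 from oligodendrocytes and astrocytes, Fgfr1 from neurons and glia, and Fgf1 and Fgf9 from neurons.

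Depth was alike in the libraries, with 15181390 to 16463721 counts each. The title of the series names TIA1, and Tia1 (ENSMUSG00000071337), an RNA-binding protein of stress granules, had no lower level under the cKO label: 75.1 ± 18.4 normalised counts (CPM, read counts scaled to a common library size; SD, n = 3) in WT and 79.1 ± 4.29 (SD, n = 4) in cKO, with an edgeR adjusted p of 0.91. Counts over whole genes need not show a deletion of some exons or in some cells, so this gene does not check the labels, and every direction below is between libraries labelled WT and cKO. The library of cKO replicate 3 stood apart: its chi-square statistics per degree of freedom against the other cKO libraries were 17.6 to 22.0, against 4.42 to 8.04 among those others, and its share of mitochondrially encoded counts, 7.54%, was the highest of a range that started at 5.50%. WT replicate 1 and cKO replicate 1 had 0 counts of the Y-linked gene Ddx3y. Defining cortical markers were present in all libraries, with summed FPKM (fragments scaled to gene length and library size) of 7 excitatory neuron genes between 1029 and 1542.

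The sequences just upstream of 3 of the genes are shown because these genes carry the patterns described below: Fgfr2 differed most between the genotypes, while Spry2 and Etv5 moved together among libraries of the same genotype. Each run holds the 250 bases before the RefSeq transcription start (GRCm38.p6, the build also called mm10), 5′ to 3′ on the strand of the gene; all 3 genes lie on the minus strand, and the windows are chr7:130266809-130267058 for Fgfr2, chr14:105896820-105897069 for Spry2 and chr16:22439571-22439820 for Etv5, the first of its RefSeq starts. Capitals mark the GC box (GGGCGG) and the CCAAT box (CCAAT), on either strand.
Fgfr2: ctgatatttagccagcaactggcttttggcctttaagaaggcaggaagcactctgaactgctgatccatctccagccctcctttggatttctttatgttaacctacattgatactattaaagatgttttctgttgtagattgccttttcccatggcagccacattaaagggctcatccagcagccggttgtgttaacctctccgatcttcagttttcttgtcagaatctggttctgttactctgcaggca
Spry2: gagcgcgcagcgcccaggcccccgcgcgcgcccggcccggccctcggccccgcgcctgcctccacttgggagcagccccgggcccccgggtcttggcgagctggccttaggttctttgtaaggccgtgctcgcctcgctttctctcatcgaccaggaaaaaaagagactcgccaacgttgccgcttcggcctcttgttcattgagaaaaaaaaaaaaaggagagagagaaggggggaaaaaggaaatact
Etv5: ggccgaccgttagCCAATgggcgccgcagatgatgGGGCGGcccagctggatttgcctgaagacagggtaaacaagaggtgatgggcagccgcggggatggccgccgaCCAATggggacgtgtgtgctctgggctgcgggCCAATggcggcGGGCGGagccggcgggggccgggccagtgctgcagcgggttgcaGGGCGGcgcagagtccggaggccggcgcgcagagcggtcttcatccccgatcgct
The Etv5 window held 3 GC boxes and 3 CCAAT boxes, and the other windows shown held neither. The RefSeq start of Fgfr2 lies at least 545 bases upstream of the GENCODE M21 starts of all its transcripts but 1. Its window therefore does not adjoin those starts. The Fgfr2 window was AT-rich, with 44.0% G or C and 2 CpG dinucleotides, against 62.4% and 23 for Spry2 and 71.2% and 27 for Etv5. The median over all 32851 RefSeq upstream windows of this length was 52.4% and 6 CpG. Upstream windows were found for 7 of the genes, 9 windows in all, since Etv5 and Fgfr3 have more than 1 start. Across them, the ETS core CCGGAA, the letters that Etv5 and its relatives recognise, had 0 matches in all 9 (12.03% of all windows hold it), as had the cyclic AMP element TGACGTCA (1.55%) and the TATA box TATAAA (12.4%). GC boxes stood in 5 of the 9 windows, those of Fgf2 and Spry1, both of Fgfr3 and the one of Etv5 shown, against 32.7% of all windows. CCAAT boxes stood in 4 of the 9, one each for Spry1 and Fgfr3 and both for Etv5, against 33.8% of all windows; this motif was added after the sequences had been seen. The windows of Fgf2, Fgf9 and Fgfr2 and the downstream ones of Fgfr3 and Etv5 lie inside the deposited gene spans. The Etv5 window shown and the other Fgfr3 window lie partly inside. Letters counted in these windows can therefore include annotated gene sequence.

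The deposited gene length behind the FPKM is, for most genes, all annotated exons merged, which need not match the transcripts present. On this scale, the target Etv5 and the inhibitor Spry2 were the most abundant of the 10 genes, with means over the 7 libraries of 35.5 ± 3.63 and 26.2 ± 2.33 FPKM (SD, n = 7). Below them came Fgfr3 (14.1 ± 2.80), Fgf1 (13.4 ± 1.81), Fgfr1 (6.65 ± 0.50), Fgfr2 (4.89 ± 0.89), Spry4 (4.34 ± 0.52), Fgf9 (4.02 ± 0.52), Spry1 (2.54 ± 0.38) and Fgf2 (1.52 ± 0.13 FPKM). The ranges over libraries overlapped for 4 neighbouring pairs of that order, Fgfr3 with Fgf1, Fgfr1 with Fgfr2, Fgfr2 with Spry4 and Spry4 with Fgf9, so those ranks are not separated by these libraries. The other 5 neighbouring pairs did not overlap. CPM divided by the deposited gene length gave the same order for all 10. This is no separate check, since the FPKM come from the same counts and lengths. The library totals they imply were 0.97 to 1.02 times the count sums. Etv5 and Spry2 lay above all the receptors and ligands, whereas Spry4 lay among them and Spry1 near the bottom.

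**Figure D1:**
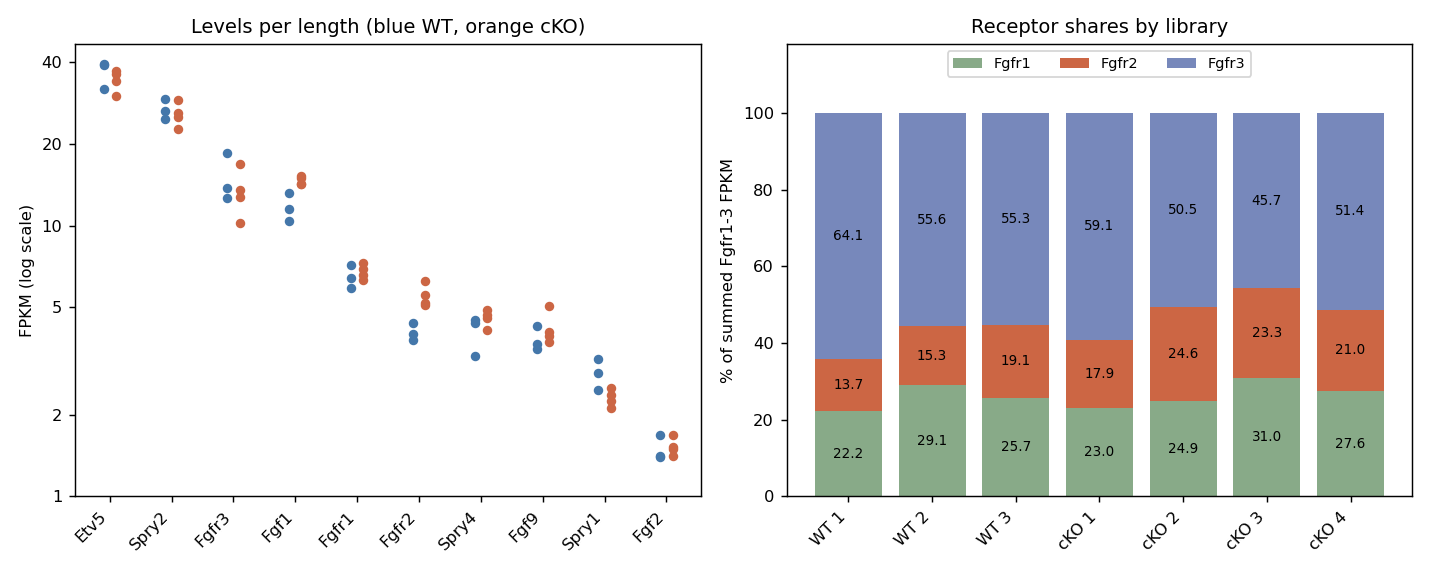
Left, FPKM on a log scale for each gene in each library (blue points, 3 WT; orange points, 4 cKO), ordered by the mean over all libraries. Right, the percentage of summed Fgfr1, Fgfr2 and Fgfr3 FPKM that each receptor held in each library; Fgfr3 held the largest share in all 7, from 45.7% to 64.1%.

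Of the 3 receptors, Fgfr2 was higher in every library labelled cKO than in any labelled WT, while Fgfr1 and Fgfr3 overlapped between the genotypes. Fgfr2 (ENSMUSG00000030849; mm10 chromosome 7, 130162451 to 133123350, minus strand) encodes a receptor for several FGFs. Its level was 40.8, 39.2 and 45.2 CPM in WT replicates 1 to 3 and 53.4, 64.9, 53.5 and 57.8 CPM in cKO replicates 1 to 4. The lowest cKO libraries, replicates 1 and 3, lay above the highest WT library, replicate 3, and cKO replicate 2 was the highest of all. The means were 41.8 ± 3.12 (SD, n = 3) and 57.4 ± 5.42 CPM (SD, n = 4), a ratio of 1.37, and the fitted log2 fold change was 0.46 ± 0.10 (SE; 95% interval 0.25 to 0.67). It rested on 635 to 976 counts per library and was 0.48 without cKO replicate 3. The value is the one that put Fgfr2 in the set. Of all 16308 genes tested, 7.38% had groups that did not overlap in CPM, 3.97% with cKO higher and 3.42% with cKO lower, and nothing is read from the 2 of 10 (Fgfr2 and Fgf1) that did so here.

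Fgfr1 (ENSMUSG00000031565, chromosome 8), the receptor of broadest use in brain, was at 63.2, 71.2 and 58.1 CPM in WT and 65.7, 63.0, 68.0 and 72.6 CPM in cKO. The groups lay over each other, and the log2 fold change was 0.07 ± 0.09 (SE; 95% interval -0.13 to 0.26). Fgfr3 (ENSMUSG00000054252, chromosome 5), the receptor known from astrocytes, was at 132, 98.8 and 90.7 CPM in WT and 122, 92.5, 72.9 and 97.9 CPM in cKO. Replicate 1 was the highest library in both genotypes, and these are the 2 libraries without Ddx3y counts, while cKO replicate 3 was the lowest. Fgfr3 varied most among the 10 genes within a genotype, with coefficients of variation of 20.6% in WT and 21.2% in cKO. Its log2 fold change of -0.15 ± 0.16 (SE) became 0.02 without WT replicate 1 and -0.05 without cKO replicate 3, so no direction is given.

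The makeup of the receptor pool was compared as each receptor's percentage of the summed FPKM of Fgfr1, Fgfr2 and Fgfr3. Fgfr2 held 13.7%, 15.3% and 19.1% of it in WT and 17.9%, 24.6%, 23.3% and 21.0% in cKO. The groups overlapped on this scale, since cKO replicate 1 lay below WT replicate 3; the means were 16.0% ± 2.77 (SD, n = 3) and 21.7% ± 2.94 (SD, n = 4). Fgfr3 held 58.3% ± 5.01 in WT and 51.7% ± 5.55 in cKO, and Fgfr1 25.6% ± 3.44 and 26.6% ± 3.46. The summed level was 25.5 ± 3.08 FPKM in WT and 25.7 ± 2.62 FPKM in cKO, a difference smaller than either SD. Fgfr4, the remaining receptor of the family, had 7 counts in all libraries together.

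**Figure D2:**
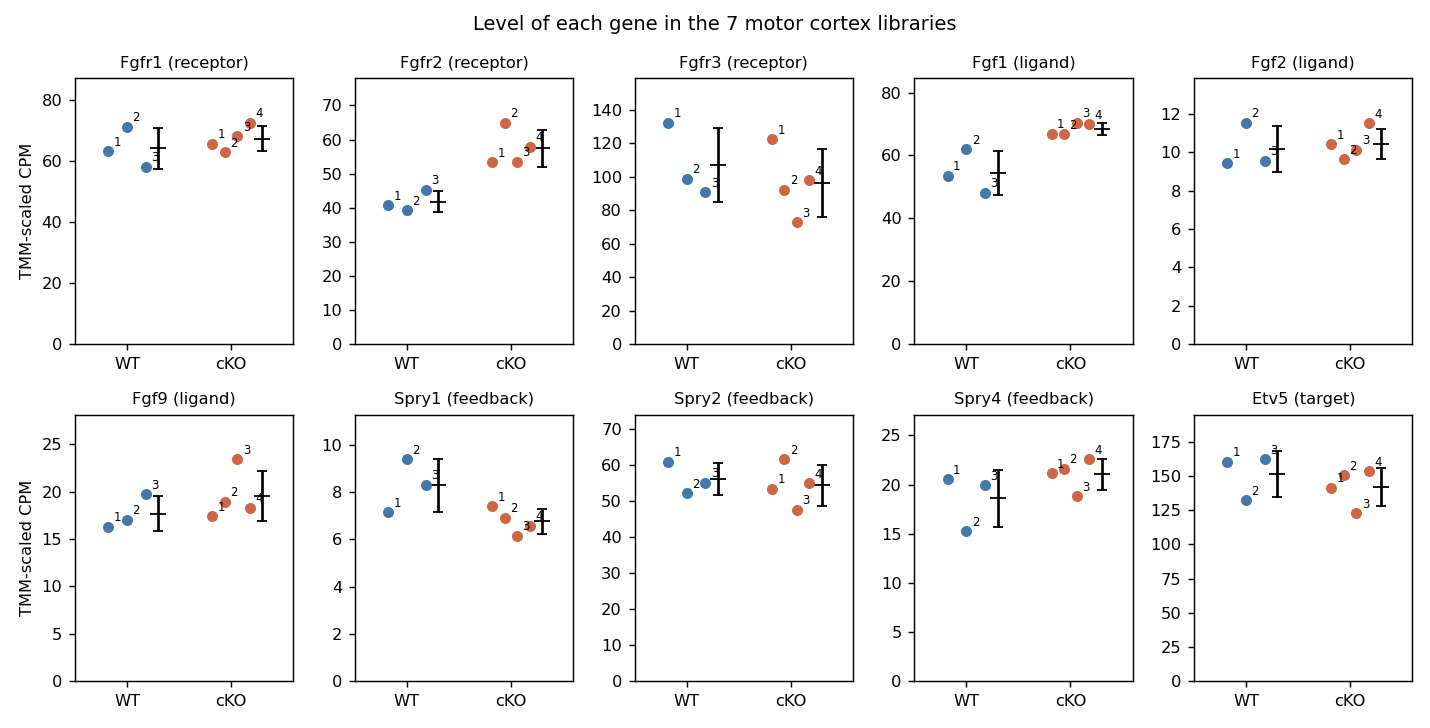
TMM-scaled CPM of each gene (vertical axes from 0) in the 3 WT (blue) and 4 cKO (orange) libraries, with replicate numbers; black bars are the mean and SD of each group. Fgfr2 and Fgf1 are the genes whose cKO points all lie above their WT points, and the replicate 1 points of Fgfr3 are the highest in both groups.

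Among the ligands, Fgf1 was higher in every cKO library than in any WT library, and Fgf2 and Fgf9 were not separated. Fgf1 (ENSMUSG00000036585, chromosome 18), which can bind all FGF receptors, was at 53.5, 61.9 and 48.1 CPM in WT and 67.0, 66.8, 70.4 and 70.0 CPM in cKO. The cKO libraries lay close together, with a coefficient of variation of 2.78% against 12.7% in WT, and all of them lay above WT replicate 2, the highest WT library. The means were 54.5 ± 6.95 (SD, n = 3) and 68.6 ± 1.91 CPM (SD, n = 4), a ratio of 1.26, and the log2 fold change was 0.33 ± 0.09 (SE; 95% interval 0.13 to 0.53). This difference, too, was in view when the set was chosen.

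Fgf2 (ENSMUSG00000037225, chromosome 3), basic FGF, a ligand made largely by astrocytes, was the least abundant of the genes, at 9.42, 11.5 and 9.58 CPM in WT and 10.4, 9.64, 10.1 and 11.5 CPM in cKO. All 4 cKO values lay inside the WT range, and the log2 fold change was 0.04 ± 0.13 (SE). Fgf9 (ENSMUSG00000021974, chromosome 14), a ligand that prefers Fgfr3 and some forms of Fgfr2, was at 16.3, 17.0 and 19.7 CPM in WT and 17.4, 19.0, 23.4 and 18.3 CPM in cKO. Only cKO replicate 3 exceeded the WT range, and the log2 fold change of 0.14 ± 0.13 (SE) was 0.04 without that library.

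The Sprouty genes did not move as a group. Spry1 (ENSMUSG00000037211, chromosome 3), an inhibitor that acts between receptor and RAS, was at 7.16, 9.39 and 8.32 CPM in WT and 7.42, 6.92, 6.16 and 6.58 CPM in cKO. Of the 4 cKO libraries, 3 lay below the lowest WT library and replicate 1 lay above it; the log2 fold change was -0.29 ± 0.15 (SE; 95% interval -0.61 to 0.03) on 91 to 152 counts per library. Spry2 (ENSMUSG00000022114, chromosome 14, 105891947 to 105896819), the most abundant Sprouty per length, was at 60.8, 52.1 and 55.0 CPM in WT and 53.3, 61.5, 47.5 and 54.9 CPM in cKO, with a log2 fold change of -0.04 ± 0.10 (SE). The Spry2 groups shared nearly their whole range.

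Spry4 (ENSMUSG00000024427, chromosome 18), which like its relatives damps receptor signalling to ERK, was at 20.6, 15.3 and 19.9 CPM in WT and 21.2, 21.6, 18.8 and 22.6 CPM in cKO. All cKO libraries but replicate 3 lay above the highest WT library, and the log2 fold change of 0.18 ± 0.13 (SE) fell to 0.04 without WT replicate 2, the lowest library. Etv5 (ENSMUSG00000013089, chromosome 16, 22381309 to 22439719), the ETS factor induced by FGF signalling, was at 161, 132 and 162 CPM in WT and 142, 151, 123 and 154 CPM in cKO. The lowest library of each genotype, WT replicate 2 and cKO replicate 3, was the lowest for Spry4 as well, and the log2 fold change of Etv5 was -0.09 ± 0.10 (SE).

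Over the 10 genes, 6 log2 fold changes were positive and 4 negative, with a median of 0.05, beside a median of 0.01 and 51.8% positive over all genes tested. Genes past an adjusted p of 0.05 numbered 0 of 16308 (0%) by edgeR's quasi-likelihood test with Benjamini-Hochberg adjustment, and 1164 (7.14%) had an unadjusted p under 0.05, of which 689 (4.22%) were higher and 475 (2.91%) lower in cKO. DESeq2 called 12 genes at an adjusted p under 0.05, limma-voom 0. The set was picked from this contrast, so its own counts are not read against these shares. Fgfr2 was the gene of the 10 that lay farthest from 0; Fgf1 came next, and Spry1, next after it, had groups that overlapped.

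**Figure D3:**
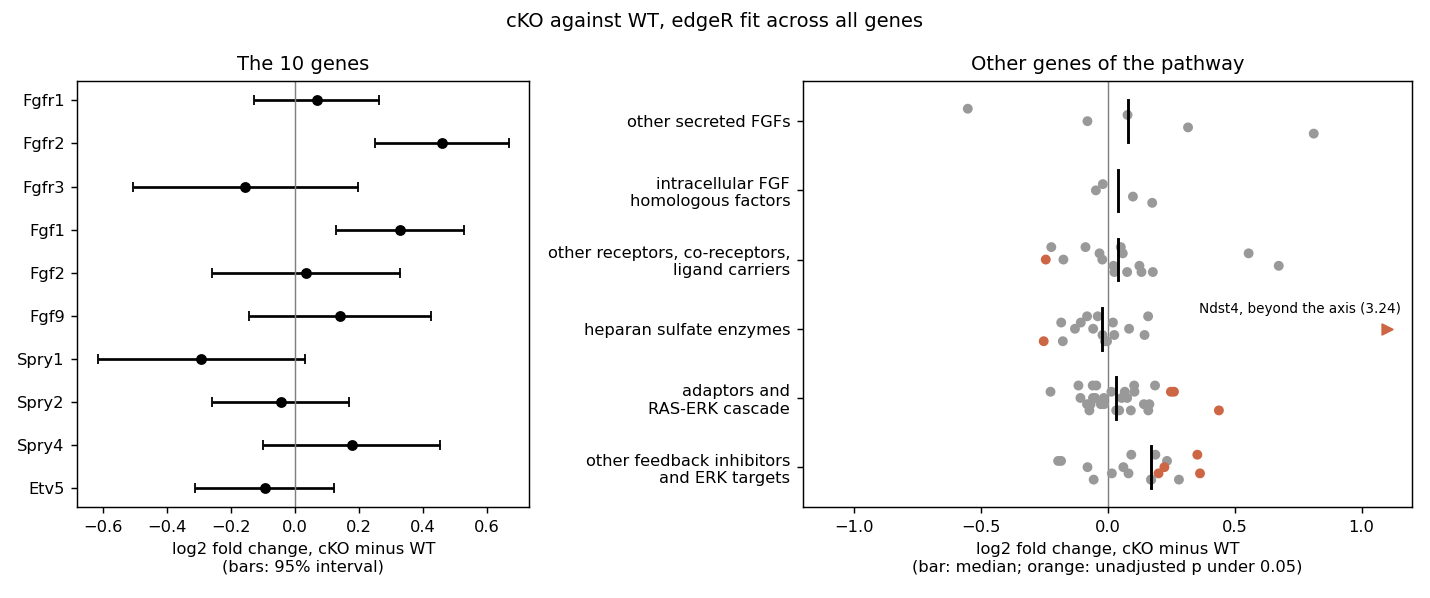
Left, fitted log2 fold changes (cKO minus WT) of the 10 genes with 95% intervals, drawn as a description since the genes were chosen with this contrast in view; the fold changes lie between -0.29 (Spry1) and 0.46 (Fgfr2). Right, the same quantity for 88 tested genes of 6 pathway lists, where bars are list medians, orange points have an unadjusted p under 0.05 and an arrow marks Ndst4 (3.24), off the axis.

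A further 101 genes of the pathway were listed in 6 groups, and 88 of them passed the filter. None passed an adjusted p of 0.05 in edgeR; 8 were higher and 2 lower at an unadjusted p under 0.05, and the median log2 fold change was 0.03, with 50 positive and 38 negative. As shares of the genes tested, these counts can be set beside the background of 4.22% and 2.91% given above; no test of a list was made.

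Other secreted FGFs were scarce: 5 of 15 passed the filter, 5 (Fgf4, Fgf6, Fgf8, Fgf15 and Fgf20) had 0 counts in all libraries, and 0 of the 5 tested had an unadjusted p under 0.05. The most abundant, Fgf10, averaged 1.80 FPKM and had a log2 fold change of -0.08 ± 0.15 (SE); Fgf5 had 0.32 ± 0.29, which was 0.09 without WT replicate 1 and 0.11 without cKO replicate 1, and Fgf22, a ligand known from synapse formation, had -0.55 ± 0.33, which was -0.32 without WT replicate 3. The 4 intracellular FGF homologous factors, which bind sodium channels and do not act through FGF receptors, were far more abundant, with Fgf12 at 34.9, Fgf13 at 32.0 and Fgf14 at 14.3 FPKM. None of the 4 had an unadjusted p under 0.05, and their median was 0.04. Fgf12 reached 289 CPM in cKO replicate 3, against 196 to 214 CPM in the other 6 libraries.

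Of 19 other receptors, co-receptors and ligand carriers, 16 were tested, with 10 positive and 6 negative values and a median of 0.04. The heparan sulfate proteoglycan Gpc1 was the only one at an unadjusted p under 0.05, with a log2 fold change of -0.24 ± 0.09 (SE; adjusted p = 0.69 by edgeR); its level was 94.4, 73.7 and 84.8 CPM in WT and 71.2, 72.6, 67.1 and 73.9 CPM in cKO, overlapping through WT replicate 2, and the fold change was -0.16 without WT replicate 1. The syndecans Sdc3 and Sdc4, cell-surface heparan sulfate carriers, were more abundant, at 29.7 and 24.2 FPKM, with log2 fold changes of -0.09 ± 0.10 and 0.03 ± 0.13. Their signs changed when single libraries were left out.

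Among 17 enzymes that build or trim heparan sulfate, all tested, 6 values were positive and 11 negative, with a median of -0.02. Sulf2, a sulfatase that removes sulfate groups from heparan sulfate outside the cell, was at 142, 129 and 136 CPM in WT and 124, 117, 102 and 114 CPM in cKO. All cKO libraries lay below all WT libraries, with a log2 fold change of -0.25 ± 0.08 (SE) and an edgeR adjusted p of 0.68. Ndst4, a sulfotransferase of the chain, had a log2 fold change of 3.24 ± 1.15 (SE; adjusted p = 0.69 by edgeR) that came from 1 library: cKO replicate 3 held 58.4 CPM against 1.52 to 3.46 CPM in the other 6, and the value was 0.60 without it. Of the 3 most abundant enzymes, Sulf2 averaged 20.9 FPKM, and Extl3 (35.6 FPKM) and Ndst1 (19.9 FPKM) had log2 fold changes of -0.06 ± 0.07 and -0.11 ± 0.08.

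Of 29 adaptors and RAS-ERK kinases, all tested, 16 values were positive and 13 negative, with a median of 0.03, and 3 had an unadjusted p under 0.05, all higher in cKO. Gab1, a docking protein that links receptors to phosphatase and lipid kinase signalling, was at 27.9, 39.6 and 36.1 CPM in WT and 40.7, 55.9, 41.5 and 49.1 CPM in cKO. Its groups did not overlap, and the log2 fold change was 0.44 ± 0.14 (SE; adjusted p = 0.68 by edgeR). Sos1, the exchange factor that loads RAS, and Rps6ka3, an ERK-activated kinase, had log2 fold changes of 0.25 ± 0.11 and 0.26 ± 0.09, which were 0.13 and 0.19 without cKO replicate 3. Of the kinases of the cascade itself, Map2k1, which phosphorylates ERK, averaged 71.4 FPKM. Mapk3, itself an ERK, averaged 46.6 FPKM. Their log2 fold changes were -0.07 ± 0.11 and 0.01 ± 0.11, and the groups overlapped for both.

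Of 17 other feedback inhibitors and ERK targets, all tested, 13 values were positive and 4 negative, with a median of 0.17; it lay between 0.09 and 0.15 when 1 library at a time was left out. Errfi1, an inhibitor of ERBB receptors induced by growth factors, was at 32.0, 33.7 and 38.8 CPM in WT and 43.8, 43.6, 46.2 and 45.6 CPM in cKO, with groups apart and a log2 fold change of 0.36 ± 0.09 (SE; adjusted p = 0.68 by edgeR). Spred1, a Sprouty relative that recruits the RAS inhibitor neurofibromin, had 0.20 ± 0.08, Cbl, a ubiquitin ligase that marks receptors for removal, 0.22 ± 0.10, and Phlda1 0.35 ± 0.16. Without cKO replicate 3, Cbl had 0.14 and Phlda1 0.25. Dusp6, the ERK phosphatase widely used as a readout of FGF signalling, averaged 24.9 FPKM and had a log2 fold change of 0.02 ± 0.10, and Spred2 had 0.06 ± 0.07.

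Markers of cell types were read in the same fit, and none had an adjusted p under 0.05 by edgeR. The oligodendrocyte gene Ugt8a was among the 12 genes that DESeq2 called, with a log2 fold change of 0.68 (adjusted p = 0.036 by DESeq2). In bulk tissue, fewer cells of a type and less RNA per cell cannot be told apart. All 12 oligodendrocyte genes had positive log2 fold changes, with a median of 0.39 and 4 at an unadjusted p under 0.05; their summed FPKM lay at 671 to 1017 in WT and 744 to 1434 in cKO, and no marker of the list was at 0. Per library, the mean of the 12 genes (log2 CPM minus the mean over libraries) was -0.60, -0.03 and -0.06 in WT and 0.26, 0.48, -0.42 and 0.37 in cKO. The groups overlapped, with cKO replicate 3 below WT replicates 2 and 3.

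With the genotype means removed, the level of Fgfr2 over the 7 libraries had a Pearson r of 0.53 with the oligodendrocyte mean. It had a higher r, 0.73, with the mean of 7 striatal medium spiny neuron genes, all of which had positive log2 fold changes (median 0.29); their mean was highest in cKO replicate 2 (0.68), as was Fgfr2. With 8 microglial genes, of which 7 had negative values (median -0.16), its r was -0.63. Summed FPKM of the striatal genes lay at 175 to 230 in WT and 186 to 333 in cKO, and that of the microglial genes at 141 to 176 and 123 to 149.

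All 7 excitatory neuron genes had negative values, with a median of -0.22 and a summed FPKM of 1418 to 1542 in WT and 1029 to 1423 in cKO, and Fgf1 had an r of -0.59 with their mean. The 12 astrocyte genes had a median of 0.01, with 7 positive and 5 negative values and a summed FPKM of 732 to 818 in WT and 744 to 838 in cKO; Fgfr3 and that mean had an r of 0.63, beside higher values of 0.79 with oligodendrocyte precursor genes and 0.73 with excitatory neuron genes, 0.61 with endothelial genes and -0.65 with striatal genes. Of 11 immediate early genes, which answer to neuronal activity and ERK, 8 had positive values, with a median of 0.34. Their summed FPKM was 253 to 310 in WT and 284 to 382 in cKO. Their mean had an r of 0.70 with Fgfr2, 0.70 with Spry4, 0.65 with Etv5, 0.40 with Spry2 and 0.37 with Fgf9. It was negative with Fgf1 (-0.67), Spry1 (-0.65), Fgf2 (-0.53), Fgfr1 (-0.52) and Fgfr3 (-0.27). Spry4 and Etv5 had 0.74 and 0.69 with excitatory neuron genes, and 0.67 and 0.81 with ependymal genes. The part of these cell types and of neuronal activity in the levels of the FGF genes was not tested.

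**Figure D4:**
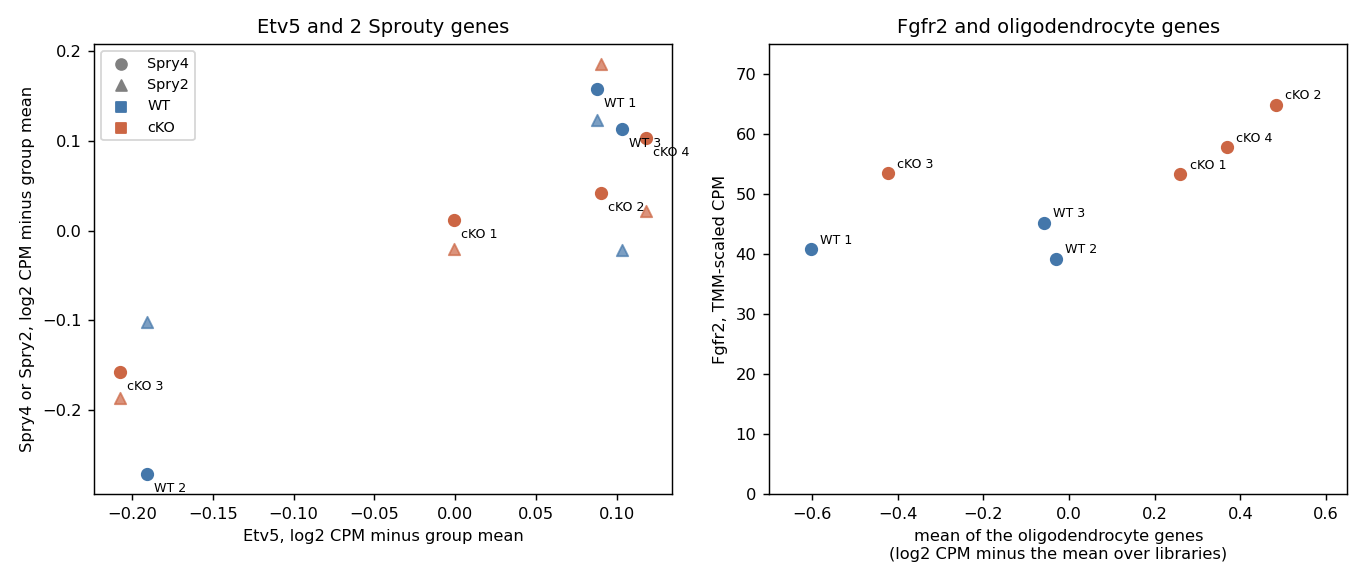
Left, log2 CPM minus the group mean of Spry4 (circles) and Spry2 (triangles) against that of Etv5 in each library (blue WT, orange cKO); WT replicate 2 and cKO replicate 3 lie lowest. Right, CPM of Fgfr2 (axis from 0) against the mean of 12 oligodendrocyte genes per library; WT libraries lie between -0.60 and -0.03 on the horizontal axis and cKO libraries between -0.42 and 0.48.

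How the genes varied among libraries of the same genotype does not use the difference between genotypes by which they were chosen. For each gene, log2 CPM minus the mean of its group was correlated over the 7 libraries; such values leave few degrees of freedom, share the libraries' depth and composition, and are given without a test. The 45 pairs had a median Pearson r of -0.18, from -0.90 to 0.94, and 17 were above 0; the median was 0.16 without WT replicate 2.

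Spry4 and Etv5 were the closest pair, with r = 0.94 (Spearman rho 0.71). It stayed between 0.94 and 0.97 when any 1 library was left out, and was 0.74 without WT replicate 2 and cKO replicate 3, the lowest of both genes. Spry2 went with both, at r = 0.80 with Etv5 (rho 0.61; 0.62 to 0.90 with 1 library left out) and r = 0.70 with Spry4 (rho 0.61; 0.59 to 0.85). Among 11620 genes with a mean of at least 5 CPM, Spry4 ranked 27 and Dusp6, which was not in the set, ranked 79 by likeness to Etv5, with r = 0.91 for Dusp6; 78 other genes therefore resembled Etv5 more than Dusp6 did. Spred3, another inhibitor of the Sprouty kin, ranked 299, with an r of 0.81 with Etv5. Other feedback genes had lower values with Etv5: Spred1 0.52, Spred2 0.40, Il17rd 0.21, Dusp4 0.08 and Errfi1 0.06. Etv1 and Etv4, the closest relatives of Etv5, had 0.45 and 0.50, and Spry1 had -0.22.

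Fgfr1 went with the ligands Fgf1 (r = 0.91, rho 0.96) and Fgf2 (r = 0.89, rho 0.75). With 1 library left out, the first ran from 0.80 to 0.98 and the second from 0.76 to 0.96; without WT replicate 2 and cKO replicate 4, the libraries farthest from the median of Fgfr1, they were 0.92 and 0.31, so the relation with Fgf2 rests on those libraries. Fgf1 and Fgf2 had an r of 0.74, which was 0.21 without WT replicate 2. The mean of 3 choroid plexus genes was highest in cKO replicate 4. Its r was 0.72 with Fgf2, 0.55 with Fgfr1 and 0.26 with Fgf1. Fgfr3 and Fgf9 went in opposite directions, with r = -0.90 (rho -0.96; -0.95 to -0.83 with 1 library left out, and -0.97 without the replicate 1 libraries of both genotypes). Libraries high in Fgfr3 were thus low in Fgf9. With means of marker genes, Fgf9 had an r of -0.91 for oligodendrocyte precursors, -0.83 for astrocytes and 0.75 for inhibitory neurons. Fgfr3 had 0.79, 0.63 and -0.43 with the same means. The part of cell types in this pair was not tested. Fgf1 had negative values with Spry4 (r = -0.77) and Etv5 (r = -0.69), but the first was -0.06 and the second -0.27 without WT replicate 2.

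Fgfr2 had an r of 0.68 with Etv5, 0.67 with Spry2, 0.53 with Spry4 and -0.04 with Spry1. With the other receptors it had -0.61 (Fgfr1) and -0.18 (Fgfr3), and the last lay between -0.65 and 0.13 when 1 library was left out. With Spry2 the value was 0.30 without cKO replicate 2. The 5 genes most like Fgfr2 were Il4 (r = 0.99), Ankrd52 (0.99), 5830417I10Rik (0.99), Sort1 (0.98) and Tob2 (0.98). Of the genes in the pathway lists, Spred1 ranked 54 (r = 0.91), and of the oligodendrocyte markers, Ugt8a, an enzyme of myelin lipid synthesis, ranked 349 (r = 0.76). The mean of the 17 other feedback inhibitors and ERK targets had an r of 0.90 with Fgfr2, 0.54 with Etv5 and 0.50 with Spry4.

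**Figure D5:**
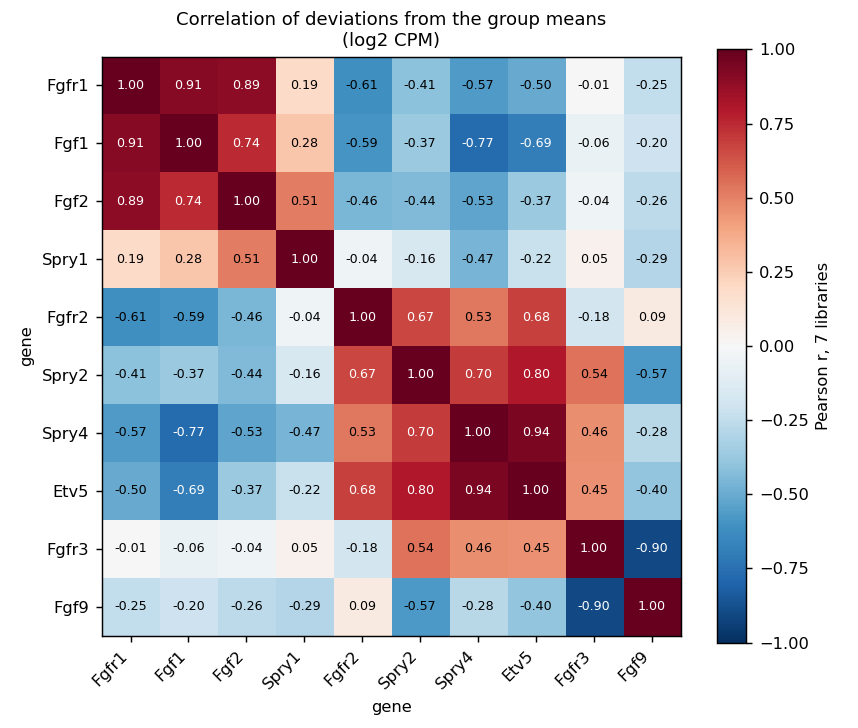
Pearson r between the 10 genes over 7 libraries, from log2 CPM minus the group mean (red above 0, blue below 0). Spry2, Spry4 and Etv5 form a block of values from 0.70 to 0.94, Fgfr1, Fgf1 and Fgf2 one from 0.74 to 0.91, and Fgfr3 with Fgf9 has -0.90.

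Some of these counts share exons with other genes in the GENCODE M21 annotation, whose exon lengths equalled the deposited ones for 98.0% of 54409 shared genes. Among the genes described here, the lengths differed for Fgf1 (4648 bases deposited, 5463 in GENCODE) and Spry4 (4587 and 4755). The library protocol describes no strand marking, so reads from opposite strands cannot be told apart. Fgfr2 shares 314 exonic bases (3.04%) with Ctbp2 on the same strand, which had 1569 counts in all libraries together. On the opposite strand, Fgfr3 shares 998 bases (13.9%) with G630022F23Rik, Fgf2 640 bases (9.44%) with Nudt6 and Spry1 710 bases (24.4%) with Gm42922. Those 3 neighbours had 114, 106 and 22 counts in all libraries together. Fgf2 also shares 255 bases (3.76%) with Gm43439 on the same strand, which had 0 counts. Fgfr1 shares 164 bases (1.66%), and Fgf1, Fgf9, Spry2, Spry4 and Etv5 share none. The long deposited span of Fgfr2, 2960900 bases, is set by 1 of 27 annotated transcripts, and the longest of the others covers 103813 bases. A ligand and a Sprouty gene lie near each other at 2 places: 229838 bases separate Fgf2 from Spry1 on chromosome 3, and 237404 bases separate Spry4 from Fgf1 on chromosome 18. Among libraries of the same genotype, Fgf2 and Spry1 had an r of 0.51, which was -0.03 without WT replicate 2.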

How the data were processed

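Motor cortex RNA was sequenced in 7 libraries. The authors deposited raw gene counts and FPKM values for the same 54532 genes. The submitters' processing notes name mm10, DESeq2 1.20.0 and featureCounts 1.5.0-p3. For aligner, annotation release and strand setting, the entry is: not given in the sources used here. Members, pathway lists, marker lists and tests were chosen with earlier results of these data known.

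The counts were fitted with edgeR 4.0.16 (R 4.3.3): TMM factors, the default filterByExpr filter (16308 genes kept), the quasi-likelihood F test of genotype over all 7 libraries, and Benjamini-Hochberg adjustment over all genes. Each SE was the fitted log2 difference over the square root of its F statistic. CPM use TMM-scaled totals, and log2 CPM a prior count of 2. The fit was tested on simulated data. Mean ± SD FPKM gave the order of levels. The genes named were every member, the 3 most abundant tested genes of each pathway list, pathway genes at an unadjusted p under 0.05, and the 5 genes most like Fgfr2; other genes were named after their values were seen, as were the relations with Etv5 and Fgf1. One gene that this rule selects is not reported here. Upstream sequences are from RefSeq. Alternatives used DESeq2 1.42.0 and limma 3.58.1 (voom, and log2(FPKM + 1)), other scalings and filters, sex as a covariate, a replicate block, and libraries left out. The replicate numbers are in the titles, which do not say what they mean. Deviations of WT and cKO libraries with the same number had correlations of 0.11, 0.13 and 0.12, so libraries with the same number were treated as pairs in the block. WT replicate 1 with cKO replicate 3 had 0.13, and WT replicate 2 with cKO replicate 4 had 0.21. These values therefore do not single out libraries with the same number. In the block, cKO replicate 4 has no WT library of its number, so it adds nothing to the genotype difference there.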

Additional observations from a re-analysis of the deposited data

Results flagged for a closer look

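Among the 4 cKO libraries, 1 library lay far from the rest for 3 of 34 genes checked, and each time it was cKO replicate 3; chance marks about 1 in 20 genes. Ndst4 was at 58.4 CPM there, and Fgf12 at 289 CPM, each the highest cKO value. Extl3 was at 206 CPM there, the lowest cKO value, against 215 CPM in each of the other 3. None of the 10 FGF genes of the report was marked in this way.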

How the results depend on the processing

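Fgfr2 and Fgf1 kept a positive log2 fold change under all 20 alternatives run, from 0.37 to 0.52 and from 0.25 to 0.42. Spry1 stayed negative (-0.39 to -0.20), as did Etv5 (-0.19 to -0.04), and Spry4 (0.04 to 0.25) and Fgf9 (0.03 to 0.23) stayed positive; the sign changed in 5 alternatives for Fgf2, 3 for Spry2, and 1 each for Fgfr1 and Fgfr3. The count of genes past an adjusted p of 0.05 was 0 with edgeR and its default filter, 198 with no filter (148 higher and 50 lower of 31277, with 2 genes of the pathway lists, Gab1 and Ndst4, among them), 12 with DESeq2, 3 with limma on log2(FPKM + 1) and no filter, and 0 with limma-voom. The replicate block gave 2 (Cadm2 and Rpl30) and changed no call among the genes named here. Leaving out 1 library gave 0 to 3. With cKO replicates 3 and 4 left out together, an alternative chosen after seeing the data, it was 1. The median over the 10 genes was -0.0016 to 0.078 with 1 library left out, lowest without WT replicate 3, and the median correlation between them was -0.21 to 0.16, highest without WT replicate 2. The median of the other feedback list was 0.08 and 0.12 with limma on log2(FPKM + 1) and log2(FPKM + 0.1).

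Small values changed sign. Upper quartile scaling gave -0.0084 for Mapk3 and -0.0013 for Dusp6; the replicate block gave 0.0012 for Fgf14 and -0.013 for Dusp6; without cKO replicates 3 and 4 Fgf12 had -0.035 and Mapk3 -0.081. With 1 library left out, the ranges were -0.18 to 0.061 for Sdc3, -0.13 to 0.12 for Sdc4, -0.086 to 0.11 for Mapk3, -0.096 to 0.12 for Dusp6, -0.11 to 0.038 for Fgf14 and -0.056 to 0.15 for Fgf12. The causes of these shifts were not tested. The number of libraries limits the precision: the SE of the 10 genes ran from 0.09 to 0.16.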
